A study of Mus musculus with 6 samples.

Results

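The 10 genes described here write, remove or carry 2 kinds of silencing mark on chromatin: methylation of lysine 27 on histone H3 and methylation of DNA. They are the Polycomb repressive complex 2 (PRC2) genes Ezh1, Ezh2, Eed and Suz12, the demethylase gene Kdm6b, the histone H3.3 genes H3f3a and H3f3b, the H3.3 chaperone gene Daxx and the DNA methyltransferase genes Dnmt1 and Dnmt3a. They were chosen by symbol from the 17551 genes of the deposited count table, and all 10 passed the filter on low counts with the 14643 genes tested. Total RNA came from 6 mouse neurosphere cultures on a C57BL/6 background, which are suspension cultures of neural stem and progenitor cells, here kept with EGF and FGF. The G328V group has 3 libraries with the genotype ACVR1 G328V, a glycine-to-valine change in the BMP receptor ACVR1, and the series calls these cultures NPAC. The WT group has 3 libraries with the genotype ACVR1 WT, and the series calls these NP. The sources used here give neither the meaning of these letters nor the locus that carries the change, nor the age and number of the animals behind the cultures. The series speaks of biological replicates, and p-values measure the spread between these libraries. The comparison asks which of the 10 genes differed between G328V and WT neurospheres.

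Libraries held 115953495 to 191115532 gene counts. Acvr1 was at 244, 250 and 650 CPM (counts scaled to the library total) in G328V replicates 1, 2 and 3, and at 42.4, 100.0 and 90.7 CPM in replicates 1, 3 and 70A of WT, which is the order of libraries used throughout. Xist, transcribed from the inactive X chromosome, was at 443 to 795 CPM in G328V against 0.25 to 1.18 CPM in WT. Uty, on the Y chromosome, had 2, 0 and 10 counts in G328V and 5567, 1967 and 6234 counts in WT. Sex-linked expression thus split all 6 libraries by genotype. For every gene compared here, sex and genotype cannot be told apart. Of 10 neural stem and progenitor markers, Sox2 (134 to 237 CPM) and Vim (1718 to 3189 CPM) were high in all 6 libraries, while Hes5 was at most 0.244 CPM in any of them. Summed levels of markers of other cells reached 2.36 CPM for microglia and blood, 39.4 for endothelium, 84.8 for fibroblasts, 56.7 for neurons, 105 for astrocytes and 432 for the oligodendrocyte lineage, the last in WT replicate 1, where Olig2 stood at 416 CPM against at most 0.938 CPM elsewhere. In such bulk RNA, fewer cells of a type and less RNA per cell cannot be told apart.

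PRC2 places methyl groups on lysine 27 of histone H3 through either of its alternative catalytic subunits, EZH1 or EZH2, which act only together with EED and SUZ12, and genes that carry the mark are kept silent. KDM6B takes the mark off. H3.3 is the H3 variant that is deposited outside of DNA replication, by HIRA in active genes and by DAXX with ATRX at repeats and telomeres, and mutation of its lysine 27 is a hallmark of the diffuse midline gliomas of childhood, some of which also carry ACVR1 mutations. DNMT1 copies DNA methylation onto new strands during replication, and DNMT3A sets it on unmethylated DNA.

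H3f3a and H3f3b make the same H3.3 protein from separate genes, and their coding sequences are shown because a level of H3.3 can be split between the genes only where reads tell them apart. Both lines give coding bases 52 to 111 (start codon at 1), on the minus strand of GRCm38, in GENCODE M21, with the codon of lysine 27 (coding bases 82 to 84) in capitals. The H3f3a stretch lies in a coding exon at chr1:180811816-180811875, and the H3f3b stretch in one at chr11:116023899-116023958.
H3f3a: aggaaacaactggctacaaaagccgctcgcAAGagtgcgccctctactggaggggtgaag
H3f3b: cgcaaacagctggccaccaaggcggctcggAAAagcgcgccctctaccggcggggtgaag
Within these 60 bases 12 differ. Over the whole coding sequence, 313 of 408 bases were identical (76.7%), 83 codons differed and 0 residues differed. The longest identical run was 23 bases, shorter than the 50-base reads that the labels name. Copies elsewhere are another matter: 27.1% of all 50-base words in H3f3a transcripts were found in other annotated genes as well, 16.3% in the opposite-strand transcript Gm17275 and 6.73% in the processed pseudogene H3f3c. For H3f3b the share was 6.86%, over 3 genes that do not include H3f3a, and for the other 8 genes it ran from 0.0% for Daxx to 5.82% for Eed. Transcripts of the opposite strand overlap 22.8% of the H3f3a exon bases, 6.82% of those of Eed and 4.11% of those of Kdm6b, and the sources used here do not give the use of strand in counting. The H3f3a level is thus the less certain of the pair.

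The paralogues Ezh1 and Ezh2 are set side by side as promoters, because Ezh1 had the largest difference of the 10 genes and Ezh2 supplies most of the catalytic transcript. Each line holds the 250 bases before the start in the RefSeq table of GRCm38.p6, on the minus strand, from chr11:101226464-101226713 for Ezh1 and chr6:47595031-47595280 for Ezh2, with GGCGCC, the core of a SMAD1/5 element, in capitals.
Ezh1: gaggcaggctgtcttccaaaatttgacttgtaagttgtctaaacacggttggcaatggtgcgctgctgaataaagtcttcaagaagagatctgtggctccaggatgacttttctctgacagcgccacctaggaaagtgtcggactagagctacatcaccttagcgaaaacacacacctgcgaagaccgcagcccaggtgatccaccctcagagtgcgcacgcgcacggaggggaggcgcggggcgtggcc
Ezh2: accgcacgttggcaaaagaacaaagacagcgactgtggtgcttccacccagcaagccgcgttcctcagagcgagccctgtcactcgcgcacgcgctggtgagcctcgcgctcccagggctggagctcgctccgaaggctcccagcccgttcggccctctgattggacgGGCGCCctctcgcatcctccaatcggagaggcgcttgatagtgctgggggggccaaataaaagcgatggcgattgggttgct
Windows of 250 bases before to 50 after the start were searched on both strands for 9 of the 10 genes. GGCGCC was in windows of Ezh2, Dnmt1 and Dnmt3a and in 11.9% of all 32851 windows, and the longer TGGCGCC, which contains it, in Dnmt1 and in 4.03%. The E2F site TTTGGCGC, which can overlap GGCGCC, was in windows of Ezh2 and Dnmt1 and in 0.514% of all, and TTTCGCGC was in 1 of the 3 Dnmt1 windows and in 0.323% of all. The Ezh1 window held neither E2F form, nor GGCGCC, nor CCAAT. The 9 genes have 15 windows, while the shares count single windows. All windows held a median of 7 CpG pairs, against 31 for Ezh2, 18 to 47 for Dnmt3a and 2 to 33 for Dnmt1. The shares are thus not matched for CpG content. A match is only a run of letters.

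None of the 10 genes passed edgeR's test over all genes, and 0 of 14643 genes did (0.00% called). Adjusted p was 0.997 for each member but Kdm6b, at 0.9996. At an unadjusted p under 0.05 the members numbered 0, beside 4.06% of all genes (1.88% higher and 2.17% lower in G328V). DESeq2, which called 0.986% of 17551 genes, also called 0 members, and none reached an adjusted p below 0.773 under any alternative. Xist was called by DESeq2 (adjusted p = 3.11e-44) and not by edgeR (adjusted p = 0.254). A gene short of edgeR's FDR may thus still differ between the groups. Of the 10 log2 differences, 7 were positive and 3 negative, with a median of 0.20, where the median over all genes tested was -0.004 and 49.7% were positive. Groups did not overlap for Suz12 and Daxx, each with G328V above WT, and for 9.70% of all genes tested (5.25% with G328V above and 4.45% with G328V below). The plot of levels by library shows that most of these genes varied little: their SD of log2 CPM over the 6 libraries had a median of 0.26, and 9 of 10 lay below 0.479, the median of the 9393 genes with at least 10 CPM on average. The exception was Ezh1, at 0.594.

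**Figure D1:**
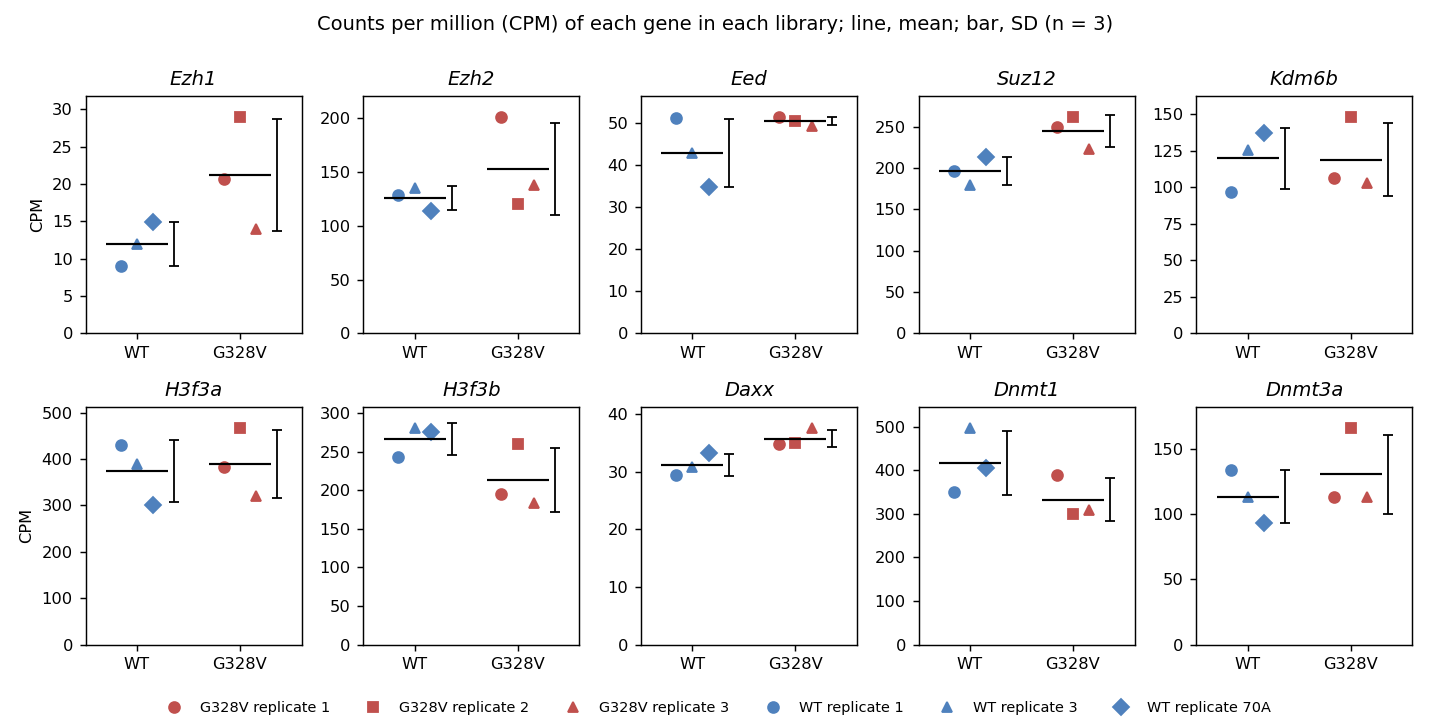
Each panel plots CPM (linear axis from 0) of 1 gene in the 3 WT (blue) and 3 G328V (red) libraries, with marker shapes for the replicate, a line at the group mean and a bar for its SD (n = 3). The G328V points lie above all WT points for Suz12 and Daxx only, and Ezh1 has the widest relative spread, from 8.995 to 29.0 CPM.

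Ezh1 and Ezh2, the alternative catalytic subunits, were each higher on average in G328V, by amounts within the spread between libraries. Gene positions here and below are those of GENCODE M21 on GRCm38. Ezh1 (chr11:101191115-101226463, minus strand) stood at 20.7, 29.0 and 13.95 CPM in G328V against 8.995, 11.9 and 14.9 CPM in WT. G328V replicates 1 and 2 lay above every WT library, and replicate 3 below WT replicate 70A. Under total-count scaling the Ezh1 groups did not overlap, with G328V above WT (as for 7.91% of all genes in that direction). edgeR gave a log2 difference of 0.83 (standard error 0.41, unadjusted p = 0.0882), a 1.77-fold difference whose 95% interval ran from 0.891 to 3.53. Leaving out 1 library at a time gave 0.53 to 1.05. The lowest value came without G328V replicate 2. Ezh2 (chr6:47530139-47595341, minus strand), the form that dividing cells rely on, stood at 201, 120 and 137 CPM in G328V against 128, 135 and 114 CPM in WT. G328V replicate 1 was the one high library, and the other 5 lay within 114 to 137 CPM. The log2 difference of 0.28 (standard error 0.26, fold interval 0.777 to 1.90) was 0.03 without G328V replicate 1.

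Eed and Suz12 encode the subunits without which neither EZH enzyme is active. Suz12 (chr11:79993106-80034123, plus strand) stood at 249, 261 and 223 CPM in G328V against 196, 180 and 213 CPM in WT, so the lowest G328V library exceeded the highest WT library by a narrow margin. Its log2 difference was 0.32 (standard error 0.20), or 1.24-fold with an interval of 0.885 to 1.75. Suz12 groups also did not overlap under total-count scaling (as for 10.8% of all genes) and upper-quartile scaling (9.66%). Leaving out a library cannot make separate groups overlap, so it is no check of this. Eed (chr7:89954654-89980983, minus strand) was nearly level in G328V, at 51.4, 50.6 and 49.4 CPM, and spread more widely in WT, at 51.2, 42.9 and 34.9 CPM. WT replicate 1 thus matched G328V. The difference of 0.23 had a standard error of 0.24, and without WT replicate 70A it was 0.10.

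Genes of proliferation were also higher on average in G328V. The mean centred log2 level of 14 S phase and proliferation genes was 0.01, 0.18 and 0.24 in G328V and -0.43, 0.01 and -0.01 in WT. Of these genes 13 had positive differences, with a median of 0.32, 1 had an unadjusted p under 0.05 and 0 passed the FDR. Their part in the Suz12, Eed and Ezh2 values was not tested.

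PRC2 also takes up accessory subunits that steer it to DNA, and 8 of the 11 symbols searched for were in the table. None passed the FDR or an unadjusted p under 0.05, 3 differences were positive and 5 negative, and the median was -0.06. Rbbp4 and Rbbp7, the histone-binding subunits, differed by -0.10 and 0.25. Jarid2 and Aebp2, cofactors of one PRC2 form, differed by 0.25 and -0.02, and E130012A19Rik (Epop) by 0.20. Mtf2, Phf1 and Phf19, the Polycomb-like proteins, differed by -0.11, -0.50 and -1.04. Phf19 varied the most: 4.97, 35.4 and 4.78 CPM in G328V and 7.31, 63.0 and 22.5 CPM in WT. High libraries were found in each group, and its difference was -2.67 without G328V replicate 2 and -0.02 without WT replicate 3.

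PRC1, which binds the lysine 27 mark and compacts chromatin, had all 19 genes tested, 11 of them with positive differences, a median of 0.16 and 0 past the FDR. Groups did not overlap for 2 of the 19, with G328V above WT (5.25% of all genes in that direction). These were Pcgf6, at 22.5 to 30.4 CPM in G328V and 18.7 to 21.6 CPM in WT, and Pcgf1, with a log2 difference of 0.77, which was named after its values were seen. Cbx6, a reader of the mark, had the smallest unadjusted p of the list (0.108) with a difference of -0.73.

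Kdm6b groups were interleaved. Kdm6b (chr11:69398508-69413675, minus strand) stood at 106, 148 and 103 CPM in G328V against 96.5, 125 and 137 CPM in WT, for a log2 difference of -0.01 (standard error 0.26). The interval of the fold, 0.642 to 1.54, leaves room for a moderate change in either direction, and the sign turned under total-count scaling (0.12). The other demethylase genes of this mark are sex-linked. Kdm6a, on the X chromosome and known to escape inactivation, stood at 116, 114 and 195 CPM in G328V against 64.8, 85.4 and 74.95 CPM in WT. All G328V libraries lay above all WT libraries, with a log2 difference of 0.92 (standard error 0.30; edgeR unadjusted p = 0.0207, adjusted p = 0.997; DESeq2 adjusted p = 0.416). Uty, its Y-linked counterpart with weak or no demethylase activity, had 2, 0 and 10 counts in G328V and 45.2, 11.2 and 35.8 CPM in WT. DESeq2 called it (adjusted p = 7.62e-19), and edgeR did not (adjusted p = 0.806). Kdm6a and Uty together came to 116, 114 and 196 CPM in G328V and 110, 96.5 and 111 CPM in WT. On the summed scale the groups still did not overlap, but only G328V replicate 3 stood clearly apart.

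H3f3b was lower on average in G328V and H3f3a was nearly level, neither past the test. H3f3a (chr1:180800832-180813943, minus strand) stood at 382, 466 and 320 CPM in G328V against 431, 389 and 301 CPM in WT, with fully interleaved groups and a log2 difference of 0.06 (standard error 0.26) that was -0.09 without G328V replicate 2. H3f3b (chr11:116021912-116027962, minus strand) stood at 194, 260 and 183 CPM in G328V against 243, 280 and 276 CPM in WT. G328V replicates 1 and 3 were below every WT library and replicate 2 was between WT replicates 1 and 70A. Its difference was -0.32 with a standard error of 0.23 (unadjusted p = 0.209), and the fold interval was 0.541 to 1.18. The H3f3b groups did not overlap without G328V replicate 2 (as for 21.7% of all genes) or without WT replicate 1 (23.7%). Summed over the pair, H3.3 transcripts averaged 602 ± 114 CPM for G328V and 640 ± 54.5 CPM for WT (SD, n = 3 each), a difference smaller than the spread.

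Per kilobase of exon, H3f3a made up 62.5%, 60.4% and 59.7% of the H3.3 transcript level in G328V and 60.1%, 54.1% and 48.1% in WT. WT replicate 1 lay among the G328V libraries, and the other WT libraries were lower. The 3 G328V libraries were tight (SD 1.48 percentage points) and the WT libraries were not (SD 6.01). With the coding length in place of the union of exons, the WT mean share was 58.1% instead of 54.1%.

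Daxx, the chaperone that places H3.3 outside of genes, was the steadiest of the 10 genes. Daxx (chr17:33909414-33915590, plus strand) stood at 34.9, 35.0 and 37.6 CPM in G328V against 29.4, 30.8 and 33.3 CPM in WT, with an SD of 0.129 in log2 CPM over the 6 libraries. The groups did not overlap, yet the difference was only 0.20 with a standard error of 0.23 (fold 1.15, interval 0.78 to 1.69). Atrx, its partner, stood at 246 to 308 CPM in G328V and 262 to 318 CPM in WT, with a difference of -0.11. Hira and Asf1a, of the replication-independent pathway in genes, differed by -0.29 and 0.06. In the list of 9 further chaperone genes 0 passed the FDR, 4 differences were positive and the median was -0.11. Cabin1 and Ubn1, partners of HIRA, had the smallest unadjusted p-values (0.121 and 0.299) with differences of -0.74 and -0.37. For Cabin1 this rested on WT replicate 1, at 242 CPM against 75.3 to 105 CPM in the other 5 libraries, and without it the difference was -0.21.

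**Figure D2:**
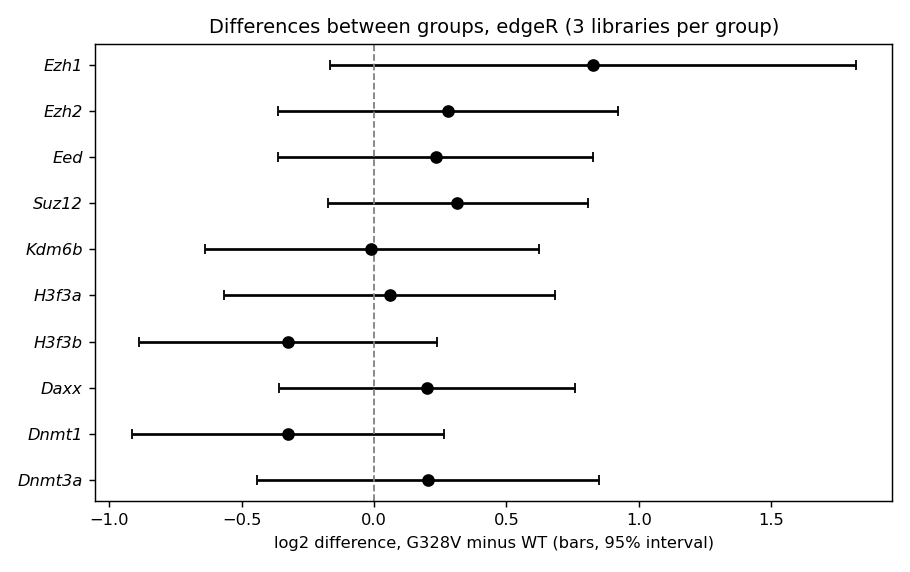
Points give edgeR's log2 difference, G328V minus WT, for each of the 10 genes (linear axis), and bars its 95% interval. Every interval crosses 0, and that of Ezh1 is the widest, from -0.17 to 1.82.

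Dnmt1, the maintenance enzyme, was lower on average in G328V, and Dnmt3a, a de novo enzyme, was higher, neither past the test. Dnmt1 (chr9:20907209-20959888, minus strand) stood at 389, 300 and 308 CPM in G328V against 349, 496 and 404 CPM in WT. G328V replicate 1 lay above WT replicate 1, and the groups overlapped there alone. edgeR's log2 difference was -0.33 (standard error 0.24), or 0.798-fold with an interval of 0.53 to 1.201. Without WT replicate 1 it was -0.45, and the groups then did not overlap, as for 23.7% of all genes. Dnmt3a (chr12:3806007-3914443, plus strand) stood at 113, 166 and 113 CPM in G328V against 133, 113 and 93.2 CPM in WT. G328V replicate 2 was the one high library. The difference of 0.20 (standard error 0.27) was -0.004 without it.

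Uhrf1, which brings DNMT1 to newly copied DNA, stood at 235, 241 and 222 CPM in G328V against 114, 158 and 253 CPM in WT. The WT range enclosed all of G328V, and the log2 difference was 0.41 (standard error 0.33). The part of the proliferation levels given above in the Dnmt1 and Uhrf1 values was not tested. Dnmt3b, the other de novo enzyme, was low throughout, at 1.65 to 2.40 CPM in G328V and 0.364 to 2.84 CPM in WT. Of 6 tested partners of DNA methylation 5 had positive differences, with a median of 0.16, and 0 passed the FDR. Zfp57, which protects imprinted methylation, differed by -1.42 with a standard error of 1.38, led by WT replicate 70A at 24.8 CPM.

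The TET enzymes oxidise methylated cytosine and so oppose the DNMTs. Tet1 stood at 13.3, 19.5 and 1.71 CPM in G328V against 54.6, 0.631 and 3.81 CPM in WT. Its difference of -0.77 (standard error 1.58) became 2.34 without WT replicate 1. Tet2 stood at 67.7, 100.3 and 33.3 CPM in G328V against 39.0, 34.3 and 44.2 CPM in WT, with a difference of 0.78. Tet3 stood at 83.3, 110 and 58.3 CPM in G328V against 202, 68.0 and 94.6 CPM in WT, with a difference of -0.54. In the 6 DNA demethylation genes 0 passed the FDR and 4 differences were negative. Among 6 methyl-CpG readers, 0 passed the FDR and groups did not overlap for 1 (G328V above WT, as for 5.25% of all genes). This was Mbd4, at 13.3 to 14.9 CPM in G328V and 5.43 to 12.6 CPM in WT. Mbd3 differed by -0.42. Of 7 tested methyltransferases that oppose the lysine 27 mark, 0 passed the FDR, and Nsd1 and Mll1 (Kmt2a) had the smallest unadjusted p-values with differences of -0.55 and -0.31.

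Levels were compared between the 10 genes per kilobase of exon. H3f3a came first at 109 CPM per kilobase (mean of 6 libraries, range 86.0 to 133) and H3f3b second at 80.5 (61.6 to 94.1), and these ranges overlapped. The range of Dnmt1 (50.8) overlapped those of H3f3b above it and Suz12 (44.6) below it, though H3f3b was higher than Dnmt1 within every library. Suz12 lay above Ezh2 (20.9) in every library. Ezh2 overlapped Kdm6b (17.1), whose lowest library (13.9) was just above the highest of Eed (13.4). Eed (12.2) overlapped Daxx (10.6). The range of Daxx overlapped that of Dnmt3a (7.33), though Daxx was higher within every library. For the other overlapping pairs the order did not hold in every library. Ezh1 was the lowest at 2.23, below every Dnmt3a value. With the longest transcript as the length, Ezh1 was still the lowest and the H3.3 genes the highest. The middle of the order changed: by coding length, Suz12 came before Dnmt1 and Dnmt3a stood at place 6 instead of 9.

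**Figure D3:**
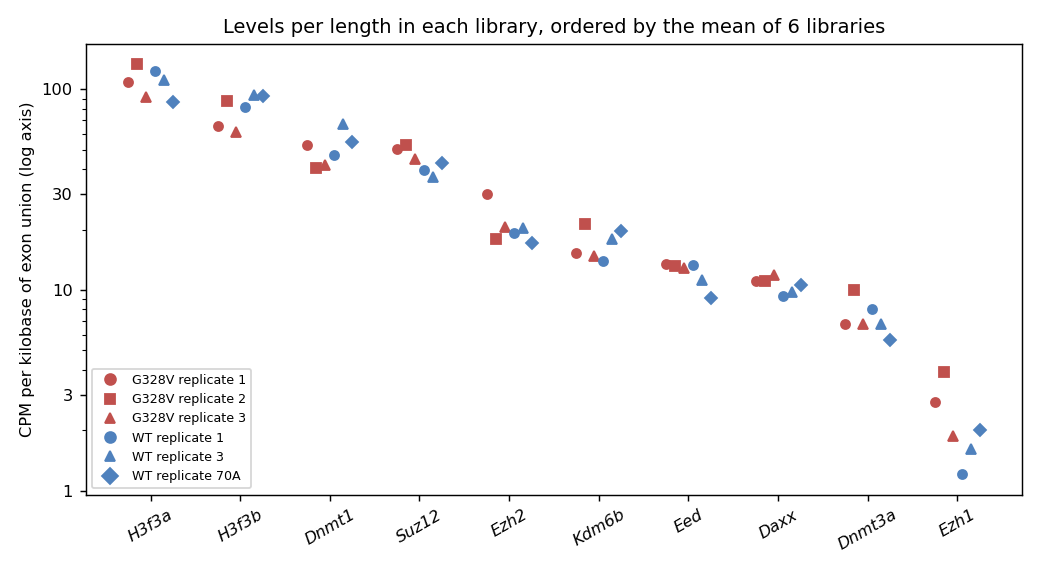
CPM per kilobase of exon union (log axis) is plotted for each gene in each of the 6 libraries, red for G328V and blue for WT. H3f3a and H3f3b sit between 61.6 and 133, and Ezh1 between 1.21 and 3.89.

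Ezh1 supplied a small part of the catalytic transcript. Its share of the summed Ezh1 and Ezh2 level per kilobase was 8.45%, 17.8% and 8.34% in G328V and 5.92%, 7.35% and 10.5% in WT. G328V replicate 2 stood out, and the other G328V libraries lay within the WT range. The log2 ratio of Ezh1 to Ezh2 differed by 0.55 between groups and by 0.13 without G328V replicate 2. Dnmt3a made up 11.4%, 19.7% and 14.0% of its sum with Dnmt1 in G328V and 14.5%, 9.19% and 9.27% in WT. G328V replicate 2 was again the highest library, and WT replicate 1 exceeded the other G328V libraries. By coding length the mean Dnmt3a share was 40.2% in G328V and 32.04% in WT, so its size depends on which length is used.

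**Figure D4:**
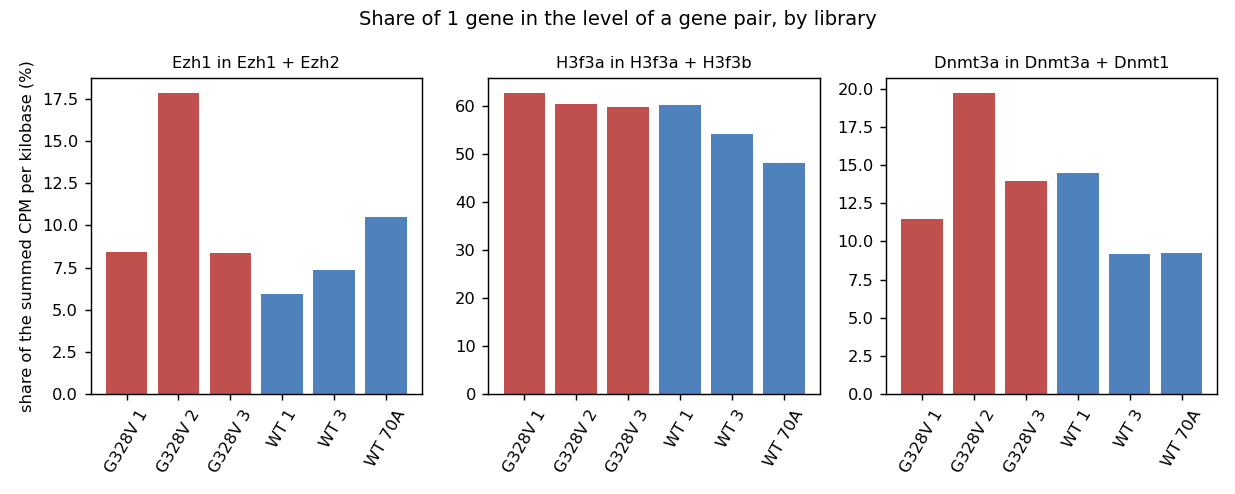
Bars give, for each library, the share (%, linear axis from 0) of Ezh1, H3f3a and Dnmt3a in the summed CPM per kilobase with Ezh2, H3f3b and Dnmt1. G328V replicate 2 is highest for Ezh1 (17.8%) and Dnmt3a (19.7%), and WT replicate 70A is lowest for H3f3a (48.1%).

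Ezh1 was the only member with an SD of log2 CPM of at least 0.5. The genes nearest to its pattern, among 9392 with at least 10 CPM on average, were Akap8l and Polh, with root mean square differences of centred log2 CPM of 0.117 and 0.133 over 6 libraries. Akap8l stood at 26.4, 31.2 and 17.6 CPM in G328V against 9.57, 12.7 and 18.1 CPM in WT, which is the order of libraries seen for Ezh1. Polh stood at 68.6, 81.1 and 50.2 CPM in G328V, and WT libraries lay lower, at 32.6, 40.2 and 44.9 CPM.

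Genes that PRC2 or DNA methylation often keep silent were listed as a possible readout of these enzymes. Of 14 such PRC2 targets 11 were tested, 7 differences were positive and the median was 1.69, with 0 past edgeR's FDR. These differences spread from -8.65 to 6.64, the median is the value of Foxc1, and it was 3.13 without WT replicate 70A and 1.32 to 1.55 without any other single library. Groups did not overlap for 3 of the 11, each with G328V above WT (5.25% of all genes in that direction). Foxc1, a forkhead factor, stood at 67.1, 112 and 64.4 CPM in G328V against 15.6, 36.8 and 23.0 CPM in WT (log2 difference 1.69, edgeR unadjusted p = 0.00641, DESeq2 adjusted p = 0.0671). Gata4, which is also a target of BMP signalling, stood at 21.1, 4.56 and 14.6 CPM in G328V against 0, 0.352 and 0.046 CPM in WT, and DESeq2 called it (adjusted p = 0.00102). Its WT counts were 0, 62 and 8, so the size of its fold rests on few counts. Gata4 passed the filter on low counts through the G328V libraries, where it is high. The numbers of positive differences and of separate groups include it, so they are no test of the enzymes. Hoxa10 was at 9.44 to 20.3 CPM in G328V against 0.471, 0 and 8.03 CPM in WT. Of 14 germline genes whose promoters are methylated in somatic cells, 11 were in the table and 4 passed the filter, 0 of them past the FDR. Neither histone nor DNA methylation was measured. Rhox5, an X-linked homeobox gene, was at 0.233, 10.2 and 9.996 CPM in G328V against 0.349, 0.955 and 0.724 CPM in WT. G328V replicate 1 was the lowest of all libraries, so the groups overlapped. Tex19.1, which helps to silence transposons in germ cells, had 0, 216 and 64 counts in G328V and 0, 1 and 46 counts in WT, and its groups overlapped too. Groups did not overlap for 1 of the 4 tested germline genes, with G328V above WT (5.25% of all genes in that direction). This was Ddx4, with few counts: 76, 58 and 65 in G328V and 34, 40 and 16 in WT.

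**Figure D5:**
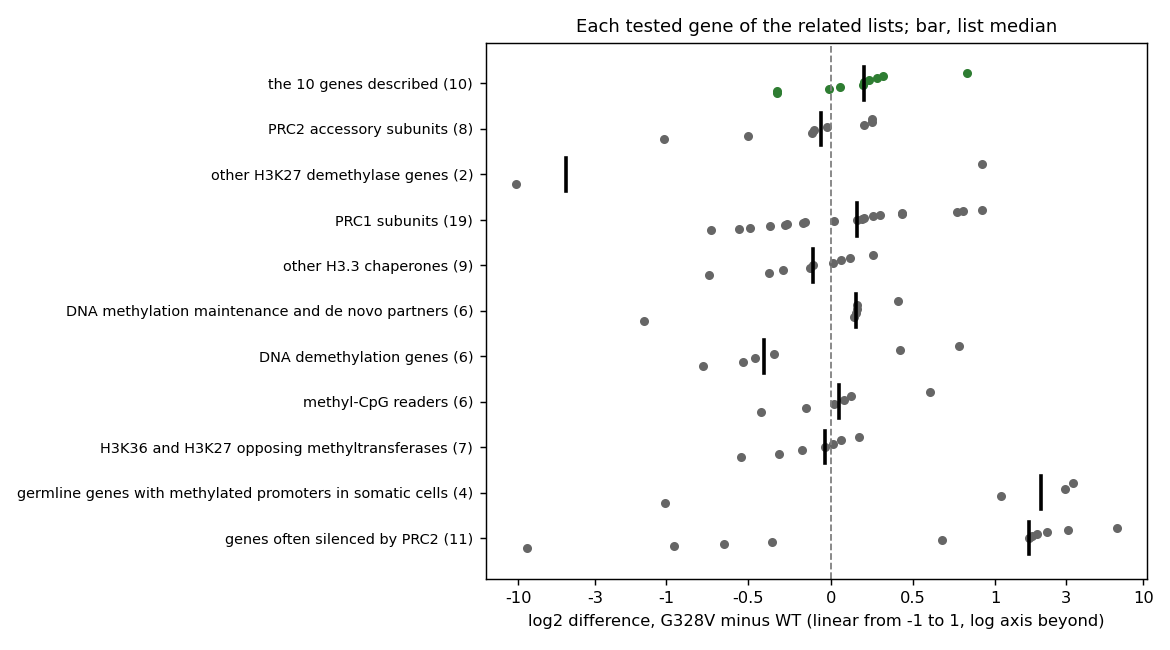
Each point is the log2 difference, G328V minus WT, of 1 tested gene (number tested in brackets; axis linear from -1 to 1 and logarithmic beyond), and black bars are list medians. The 10 genes described (green) lie between -0.33 and 0.83, and the far left point is Uty, which was read in WT libraries.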

How the data were processed

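RNA-seq was measured in 6 neurosphere libraries, 3 per genotype in the labels. Per the submitters' processing notes the build was mm10 and the tools were FastQC 0.11.3, TopHat2 2.0.13 and Bowtie2 2.2.1. The authors deposited an HTSeq table of whole-number counts per gene symbol and a Cufflinks table of estimated counts. The sources used here do not give the counting settings, strand or annotation. HTSeq counts were 1.95 to 1.96 times the Cufflinks fragments (median of 8924 genes with at least 500 counts), near the 2 mates of a fragment, and counts are not independent molecules. For Ezh1 this ratio was 1.78 to 1.95 over libraries.

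The main test was edgeR 4.0.16 in R 4.3.3, a robust quasi-likelihood F-test in its legacy form. TMM factors scaled the totals, filterByExpr required a count of at least 10, and p-values were Benjamini-Hochberg adjusted over 14643 genes at an FDR of 0.05. Standard errors came from the F statistic, and 95% intervals from them. CPM uses TMM-scaled totals. Log2 CPM has a prior count of 2. DESeq2 1.42.0, limma 3.58.1 (voom), other scalings and filters, the Cufflinks counts (rounded), each library left out and a replicate block were alternatives. Lengths and positions are from GENCODE M21 (GRCm38), promoters from RefSeq (GRCm38.p6).

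The members and lists were chosen with earlier results of these data known. All 10 members are named. Other names are the PRC2 accessory subunits, Kdm6a, Uty, Atrx, Hira, Asf1a, Dnmt3b, Uhrf1, Tet1, Tet2 and Tet3, the 2 genes of each related list with the smallest p, and for members with an SD of at least 0.5 the 2 nearest genes. Acvr1, Xist and the cell type markers are named to check the labels. Hoxa10, Pcgf1, Ddx4, Cdkn2a and Cdkn2b were named after their values were seen.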

Additional observations from a re-analysis of the deposited data

How the results depend on the processing

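Member genes called numbered 0 under all 16 alternatives, and all genes called numbered 0 except with DESeq2, which called 173 (94 higher, 79 lower). At an unadjusted p under 0.05, edgeR counted 594 genes and DESeq2 1149. Ezh1, Ezh2, Eed, Suz12, H3f3b, Daxx and Dnmt1 kept their direction under every alternative. Leaving out 1 library gave -0.198 to 0.092 for Kdm6b, -0.092 to 0.18 for H3f3a and -0.004 to 0.32 for Dnmt3a. It gave -0.10 to 0.35 for Asf1a, -0.35 to 0.71 for Dnmt3b, -1.39 to 2.34 for Tet1, -0.84 to 0.025 for Tet3, -0.12 to 0.67 for Jarid2, -0.202 to 0.088 for Aebp2, -0.23 to 0.022 for Mtf2, -0.82 to 0.35 for Phf1 and -2.21 to 0.68 for Zfp57. Total-count scaling, which moved the median of all genes by 0.12, gave 0.12 for Kdm6b, 0.013 for Atrx, 0.011 for Rbbp4, 0.11 for Aebp2 and 0.008 for Mtf2. Upper-quartile scaling gave 0.031 for Kdm6b and 0.024 for Aebp2, the Cufflinks counts 0.006 for Kdm6b and limma-voom 0.73 for Tet1. The number of members whose groups did not overlap was 2 to 5 of 10 with 1 library left out, which can only keep or raise it. The share over all genes was then 16.9% to 23.7% instead of 9.70%. The number was 5 if WT replicate 1 was dropped (23.7% of all genes) and 4 if G328V replicate 2 was (21.7%). These overlap counts and the pair ratios were added after seeing the data. The germline list had a median of 2.04, and of -1.04 with at least 1 CPM in 3 libraries. Of its 4 tested genes only Brdt (-1.025 in the main fit) passed that filter, so -1.04 is the value of Brdt alone. The causes of the other shifts were not tested.

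Only the replicate numbers 1 and 3 occur in both groups, and the labels do not say that a number marks a shared culture. Deviations from the group means correlated at 0.181 and 0.226 for these numbers. With the replicate number as a block, the fit had 1 residual degree of freedom. Its differences rest on numbers 1 and 3, as G328V replicate 2 and WT replicate 70A are alone in their blocks. It thus had little power, and the 0 genes and 0 members called are no check of the main result. The log2 differences were -0.23 for H3f3a, -0.12 for Dnmt3a, 0.12 for Hira, 0.019 for Phf1 and 1.32 for Zfp57.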

Other observations

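Within the list of genes often silenced by PRC2, Cdkn2a and Cdkn2b, neighbouring genes that encode cell cycle inhibitors, set G328V replicate 2 apart. Cdkn2a stood at 303, 0.208 and 132 CPM in replicates 1, 2 and 3 of G328V, against 165, 266 and 250 CPM in replicates 1, 3 and 70A of WT, with 25 counts in G328V replicate 2. Cdkn2b stood at 74.2, 0.0914 and 47.0 CPM in G328V against 51.3, 79.7 and 103 CPM in WT, with 11 counts in the same library. G328V replicate 2 was also the highest of the 6 libraries for Ezh1, Suz12, Kdm6b, H3f3a and Dnmt3a, and the lowest for Dnmt1. Hira was lowest there too, at 46.8 CPM against 73.8 to 115 CPM elsewhere. Both genes were named after their values were seen, and the cause was not tested.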
